A study of Mus musculus with 2 samples.

Results

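Estrogen receptor alpha (ERα) is a nuclear receptor that binds DNA when occupied by estrogen and acts on transcription from promoters and from distant enhancers. It recognises an inverted repeat called the estrogen response element, and can also be recruited through other factors bound to DNA. In the mammary gland it is found in part of the luminal epithelial cells and is required for the outgrowth of ducts during puberty. Chromatin immunoprecipitation and sequencing (ChIP-seq) finds bound sites as places where immunoprecipitated fragments pile up above a control, and the width of a called peak is the stretch over which the caller found that excess.

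The peaks described here are the narrow, isolated ones among the MACS peaks of an ERα ChIP-seq experiment in mouse mammary gland. They were chosen as MACS peaks on chromosomes 1 to 19 that were below 250 bp wide and had no other MACS peak within 5 kb. The rule was met by 281 of the 881 deposited peaks, or 31.9%. These 281 peaks covered 49478 of the 357213 bases in MACS peaks, or 13.9%. On the same chromosomes 486 further isolated peaks were 250 bp or wider, and they serve as the comparison. The rule left out 20 narrow peaks on chromosomes 1 to 19 that had a neighbour within 5 kb, and 5 narrow peaks on chromosomes X and Y. The limit of 250 bp is the approximate library fragment size in the labels. That size includes adaptor and primer sequence, so the genomic inserts were shorter than the limit.

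The ChIP library was made with an ERα antibody from mammary gland pads pooled from 6 mice, and the control was a library of whole cell extract from the same tissue. Both carry a C57BL/6J background, reached by several generations of backcrossing, and the pads were taken at 5 to 6 weeks of age. No treatment, genotype or sex is given in the labels used here. Whole pads hold fat, stroma and vessels beside epithelium, so the cell type behind a peak is not known. Each group had 1 library, so no peak has a replicate error and no test between conditions could be made. The authors deposited 2 lists of the same ChIP library, from the callers MACS and CCAT. Because the width, the MACS score and the CCAT values all come from the reads that chose these peaks, the comparisons below are descriptions with no test. Intervals are 95% Wilson intervals for shares and order-statistic intervals for medians. They cover counting error over peaks alone, and peaks of 1 library are not replicates. Read counts and fold enrichment were not in the lists, so the depth behind each peak is unknown. Positions are in mm9, counted from base 1. An mm9 sequence or annotation was not used here, so the peaks are named by position, with no gene, motif or printed sequence.

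The widths of the narrow peaks had a low point near 150 bp. Their median width was 193 bp (interval 180 to 197 bp) and their range 79 to 249 bp. In steps of 10 bp the numbers rose to 18 peaks at 90 to 99 bp and again 18 at 100 to 109 bp, fell to 4 at 140 to 149 bp, and rose again to 31 at 190 to 199 bp. Split at this low point, 80 peaks were below 150 bp, with a median width of 102 bp, and 201 were 150 to 249 bp wide, with a median of 205 bp. The split at 150 bp was chosen after the widths were seen. The limit of 250 bp itself fell at no break in the widths. The last step inside it, 240 to 249 bp, held 20 peaks, and the 5 peaks of 248 or 249 bp had scores from 79.73 to 115.47. The 6 peaks of 250 to 252 bp, just outside the limit, had scores from 90.42 to 115.05.

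**Figure D1:**
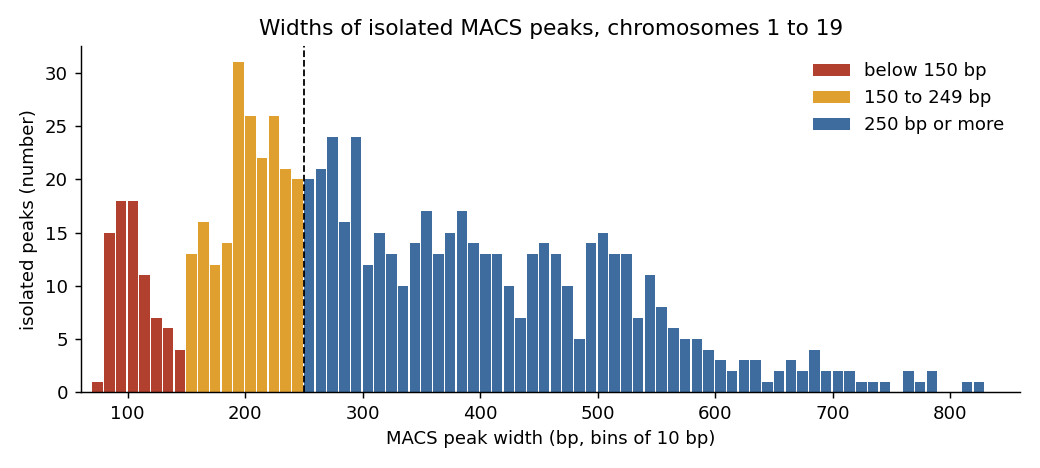
Number of isolated MACS peaks on chromosomes 1 to 19 (vertical axis) by peak width in steps of 10 bp (horizontal axis), coloured by width group and shown to 860 bp, with a dashed line at the 250 bp limit. Peaks below 150 bp form a group of 80 around 102 bp, set off by a low point of 4 peaks at 140 to 149 bp from the wider peaks, while the limit falls where widths are continuous.

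Scores of the narrow peaks were mostly low, but the medians at 75 to 99 and 100 to 124 bp were above those of the wider narrow peaks. The MACS score is the negative log10 of the p-value that the caller gave to a peak, multiplied by 10. Over the 281 peaks its median was 102 (interval 91.5 to 110) and it ran from 70.03, the lowest score in the whole list, to 1350.27. The isolated wide peaks had a median score of 223 (199 to 271). A score from 70 to below 80 was found for 67 of the narrow peaks (23.8%) and for 16 of the wide ones (3.29%). Within the narrow peaks, the 80 below 150 bp had a median score of 192 (125 to 227), and the 201 of 150 to 249 bp had a median of 88.7 (85.0 to 92.7). A score above 250 was reached by 25 of the 80 (31.2%, interval 22.2 to 42.1%) and by 32 of the 201 (15.9%, 11.5 to 21.6%). Both shares were below those of all MACS peaks (37.1%) and of the isolated wide peaks (47.3%).

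The score did not follow the width in 1 direction. The median was 187 for the 34 isolated peaks of 75 to 99 bp and 253 for the 33 peaks of 100 to 124 bp. It was 98.0 for the 13 peaks of 125 to 149 bp, a class with few members, and 106 for the 36 peaks of 150 to 174 bp. The lowest medians were those of the 50 peaks of 175 to 199 bp, at 84.1, and of the 66 peaks of 200 to 224 bp, at 85.9. Above the limit the median rose with each step of 25 bp, from 110 at 250 to 274 bp to 209 at 375 to 399 bp. The peaks of 100 to 124 bp therefore had a higher median score than any class of isolated peaks from 125 to 399 bp. Their scores were also spread widely, with an interquartile range of 125 to 429.

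**Figure D2:**
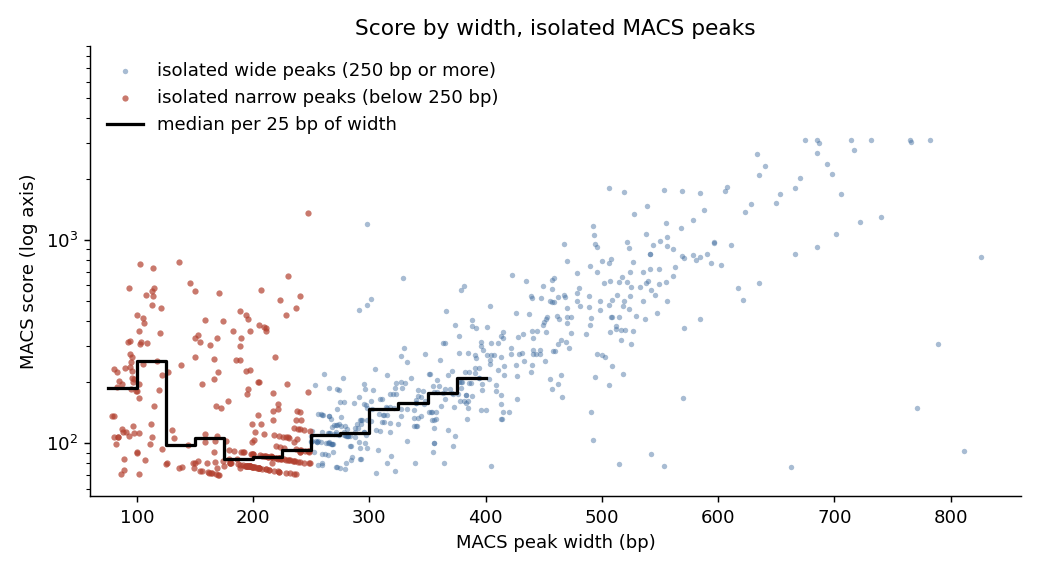
MACS score (vertical log axis) against width (horizontal axis) of each isolated peak on chromosomes 1 to 19, with the median score per 25 bp of width up to 400 bp as a black line. The axis stops at 860 bp and leaves out 3 wide peaks. The line is high at 100 to 124 bp (253), lowest at 175 to 224 bp (84.1 and 85.9) and rises again beyond the 250 bp limit.

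The 10 narrow peaks with the highest scores lay on 7 chromosomes, and 7 of the 10 were below 150 bp wide. The strongest was chr14:86598714-86598960, 247 bp wide, with a score of 1350.27. It stood apart by score, since the next was chr1:195053995-195054130, with 136 bp and 776.64. Its nearest MACS neighbour lay 4712 kb away, so it was also alone on its part of the chromosome.

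Peaks close to 100 bp wide made up much of the rest of these 10. The peak at chr18:43073575-43073677 was 103 bp wide and scored 766.15. The peak at chr2:41751693-41751806 was 114 bp wide and scored 724.86. The narrowest of the 10 was chr2:92008256-92008348, with 93 bp and a score of 583.52. Of similar width were chr4:31281324-31281438 (115 bp, score 580.14) and chr2:110133763-110133875 (113 bp, score 562.97). Chromosome 2 thus held 3 of the 10. The remaining 3 were chr12:106762939-106763168 (230 bp, score 666.17), chr8:36197918-36198063 (146 bp, score 611.86) and chr1:102635345-102635551 (207 bp, score 565.03). At all 10, CCAT gave a region whose false discovery rate (FDR) was 0.005 or 0.015, the lowest levels found at any narrow peak.

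At the other end, the 5 lowest scores lay between 70.03 and 70.61, and 4 of these 5 peaks were 168 to 237 bp wide. The fifth was chr7:35743178-35743263, 86 bp wide, with a score of 70.42. The 5 narrowest peaks were 79 to 82 bp wide and scored from 99.42 to 232.88. They lay at chr16:12711871-12711949, chr5:61239348-61239427, chr10:23708422-23708501, chr15:63458446-63458525 and chr11:40638795-40638876. The best CCAT region of each of these 5 had an FDR of 1.

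Some scores recurred among weak narrow peaks, in part at the same width. A score identical to that of another MACS peak was carried by 87 of the 281 narrow peaks (31.0%, interval 25.8 to 36.6%), against 20.2% of all MACS peaks. Among the 486 wide ones it was carried by 71 (14.6%, 11.7 to 18%). Both the width and the score were shared with another member of the group by 47 narrow peaks (16.7%, 12.8 to 21.5%) and by 16 wide ones (3.29%, 2.04 to 5.28%). Widths ran from 79 to 249 bp in the narrow group and from 250 to 5856 bp in the wide one. These 2 shares are therefore not like for like, and none was taken over all MACS peaks. Of these 47 peaks, 45 were 150 to 249 bp wide and scored below 100. The most frequent score, 77.12, belonged to 5 peaks, and all 5 were 197 bp wide.

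Along some of these recurring values the score fell as the width rose. It was 80.44 for 3 peaks of 180 bp, 77.12 for the 5 of 197 bp, 76.57 for 2 of 200 bp, 75.66 for 4 of 205 bp and 72.75 for 2 of 222 bp. A second run of values lay above the first, with 88.65 for 2 peaks of 200 bp, 85.51 for 3 of 216 bp and 84.39 for 3 of 222 bp. The peak of 240 bp at 81.22 also lay along this second run. Other weak peaks lay off both runs, such as those of 216 bp at 79.98 and of 240 bp at 90.80 and 92.93. Some scores also recurred at different widths, such as 84.12 at 179, 186 and 221 bp. The widths and scores in this paragraph were picked out after they were seen.

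CCAT listed a region at nearly every narrow peak but gave few of them a low FDR. A region was overlapped by 265 of the 281 (94.3%, interval 91.0 to 96.5%), against 95.5% of all 881 MACS peaks. None of the 281 overlapped more than 1 region, and neither did any isolated wide peak, against 0.114% of all MACS peaks. An FDR of at most 0.05 was reached at 18 peaks (6.41%, 4.09 to 9.90%), against 28.3% of all MACS peaks and 42.0% (37.7 to 46.4%) of the isolated wide ones. At 89 peaks (31.7%, 26.5 to 37.3%) the best region had an FDR of 1, the value that 15.3% of all MACS peaks had at best, as had 5.97% (4.19 to 8.44%) of the wide ones. An FDR below 1 was thus reached at 176 peaks (62.6%, 56.8 to 68.1%), against 80.1% of all MACS peaks. The FDR was 0.106 to 0.298 at 69 narrow peaks, whose median score was 196, and 0.531 to 0.689 at another 89, whose median score was 89.1. The 18 peaks with an FDR of at most 0.05 had scores from 380.30 upwards, with a median of 564, and 10 of them were below 150 bp wide.

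Both ends of the CCAT scale held a larger share of the peaks below 150 bp than of the other narrow peaks, though this was not tested. Of the 80 peaks below 150 bp, 10 (12.5%, 6.93 to 21.5%) had an FDR of at most 0.05 and 37 (46.2%, 35.7 to 57.1%) an FDR of 1. Of the 201 peaks of 150 to 249 bp, 8 (3.98%, 2.03 to 7.66%) had an FDR of at most 0.05 and 52 (25.9%, 20.3 to 32.3%) an FDR of 1. Peaks with an FDR of 1 reached higher scores below 150 bp than at 150 to 249 bp, but not higher than among wide peaks. Isolated wide peaks with an FDR of 1 scored up to 407.55, and all MACS peaks with that FDR up to 495.76. Among narrow peaks the highest was 232.88 below 150 bp, at chr5:61239348-61239427, and 152.57 at 150 to 249 bp. Next to it came chr6:8680135-8680230, 96 bp wide, with a score of 226.60, and chr1:184559967-184560049, 83 bp wide, with 225.26. These 2 were named after their values were seen.

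Peaks of like score were then set side by side, because FDR and score move together. The whole list was split at its score quartiles, 101.97, 174.97 and 376.62, and peaks beyond the end of the CCAT list on a chromosome were left out. In the lowest class an FDR of 1 was found at 14 of 17 peaks below 150 bp (82.4%, 59.0 to 93.8%), 48 of 119 of 150 to 249 bp (40.3%, 32.0 to 49.3%) and 19 of 51 wide peaks (37.3%, 25.3 to 51.0%). In the second class it was found at 14 of 17 (82.4%, 59.0 to 93.8%), 4 of 30 (13.3%, 5.31 to 29.7%) and 6 of 134 (4.48%, 2.07 to 9.42%) in the same order. The narrowest group thus had the highest share in both classes. It held 17 peaks in each, its limit was chosen after the widths were seen, and the difference was not tested. Scores within these classes were not fully matched. Median scores, here and for the upper classes, also take in peaks beyond the end of the CCAT list. They were 80, 80.5 and 89.0 in the lowest class and 114, 118 and 134 in the second, in the same order of width.

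In the third class, with scores from 175.07 to 376.62, an FDR of at most 0.05 was reached at none of 29 peaks below 150 bp (interval up to 11.7%) and none of 26 of 150 to 249 bp (up to 12.9%). It was reached at 48 of 132 wide peaks (36.4%, 28.7 to 44.8%). The median score of the 59 narrow peaks in this class was 242, and that of the 134 wide ones was also 242. Within the narrow peaks it was 233 below 150 bp and 263 at 150 to 249 bp. At scores above 376.62, 10 of 14 peaks below 150 bp (71.4%, 45.4 to 88.3%) and 8 of 13 of 150 to 249 bp (61.5%, 35.5 to 82.3%) had an FDR of at most 0.05, against 156 of 161 wide peaks (96.9%, 92.9 to 98.7%). In this highest class the scores differed more, with a median of 530 for the narrow and 694 for the wide peaks.

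**Figure D3:**
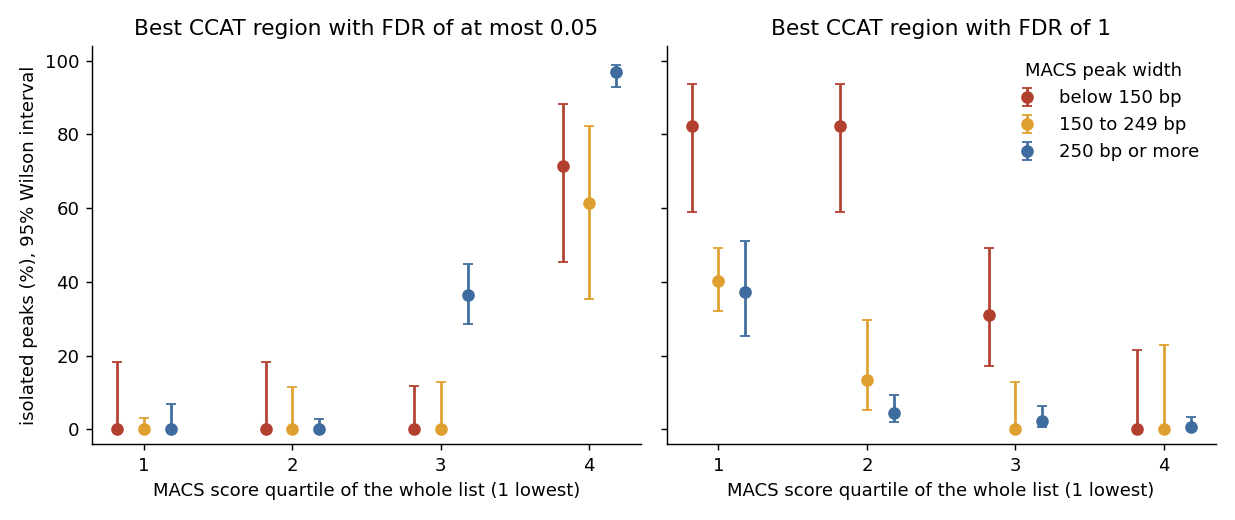
Share of isolated peaks (vertical axis, percent, with 95% Wilson intervals) whose best CCAT region had an FDR of at most 0.05 (left) or of 1 (right), by score quartile of the whole MACS list (horizontal axis) and width group. In the third quartile no narrow peak reached an FDR of at most 0.05, against 36.4% of wide peaks, and in the lowest 2 quartiles 82.4% of peaks below 150 bp had an FDR of 1.

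The CCAT regions at narrow peaks were far wider than the peaks themselves and nearly as wide as those at wide peaks. Their median width was 1200 bp (interval 1150 to 1200 bp, range 900 to 4750 bp), against 1250 bp at the isolated wide peaks and 700 bp over the whole CCAT list. The median was 1200 bp both below 150 bp and at 150 to 249 bp, so the CCAT width did not separate these groups. All 265 narrow peaks with a region lay inside it from end to end, as did 478 of 478 isolated wide peaks and 99.8% of all MACS peaks with a region.

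Narrow peaks lay close to the middle of their CCAT region, and by median those below 150 bp lay closest. The median distance from the centre of the peak to the centre of the region was 37.5 bp over all 265 (interval 28.5 to 42.5 bp), 16.0 bp (10 to 20 bp) below 150 bp and 42.2 bp (36.5 to 45.5 bp) at 150 to 249 bp. It was 24.5 bp (22.0 to 28.0 bp) at the wide peaks. CCAT bounds fall on a grid of 50 bp, which limits the precision of each distance. Among peaks below 150 bp the median distance was 57.5 and 50 bp in the lower score classes, then 9 and 6.25 bp in the upper ones. At 150 to 249 bp it was 45.5, 32.5, 36.8 and 37.5 bp from the lowest class to the highest. Some peaks of both groups lay far from the middle, at up to 376 bp in the group below 150 bp. The largest distance, 1401 bp, was that of chr17:56248071-56248278, in a region of 4750 bp with an FDR of 0.689, singled out after its value was seen.

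**Figure D4:**
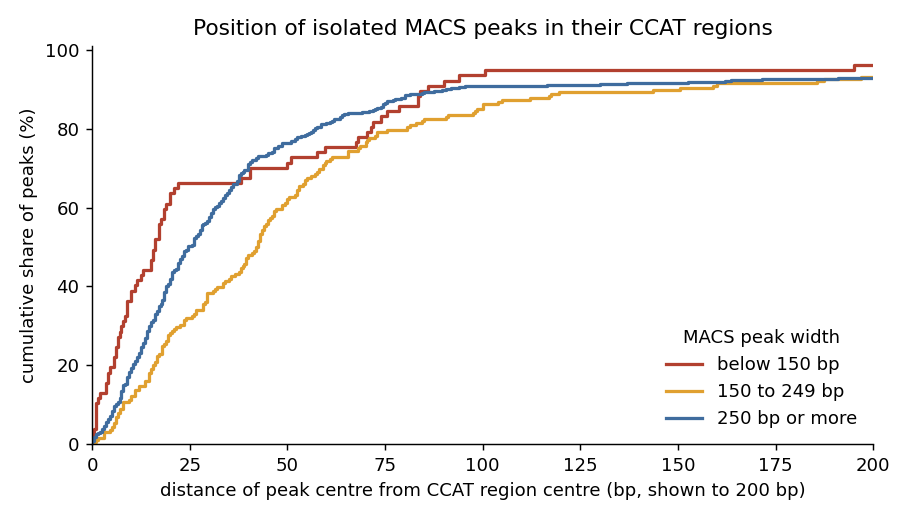
Cumulative share of isolated MACS peaks (vertical axis, percent) by the distance of the peak centre from the centre of its best CCAT region (horizontal axis, bp, shown to 200 bp), for 77 peaks below 150 bp, 188 of 150 to 249 bp and 478 of 250 bp or more. The curve of the narrowest group rises first, with a median of 16.0 bp against 42.2 and 24.5 bp, and then crosses that of the widest.

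Other called regions were counted less often around narrow peaks than around wide ones, again without a test. A further CCAT region at 1 to 10 kb was looked for where the CCAT list of the chromosome went on for 10 kb or more past the peak. It was found for 107 of 265 narrow peaks (40.4%, 34.6 to 46.4%), against 51.0% of all MACS peaks and 53.3% (48.9 to 57.8%) of 478 isolated wide ones. Below 150 bp it was found for 26 of 77 (33.8%, 24.2 to 44.9%), and at 150 to 249 bp for 81 of 188 (43.1%, 36.2 to 50.2%). These further regions mostly had an FDR of 1, since a rate below 1 was found among them at 2 of the 265 narrow peaks (0.755%, 0.207 to 2.71%). This compares with 15 of the 478 isolated wide peaks (3.14%, 1.91 to 5.11%) and 6.55% of all MACS peaks.

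MACS neighbours were also sparse beyond the 5 kb that the rule set. The median distance to the nearest other MACS peak was 726 kb (interval 636 to 961 kb) for narrow peaks and 570 kb (435 to 684 kb) for wide ones. Over all MACS peaks that median was 484 kb, and 21.0% had a neighbour within 50 kb, but this set includes peaks with a neighbour within 5 kb. A neighbour within 50 kb was found for 18 of the 281 narrow peaks (6.41%, 4.09 to 9.90%) and 66 of the 486 wide ones (13.6%, 10.8 to 16.9%). Of these 18, 17 were 150 to 249 bp wide and 1 was below 150 bp, chr11:98514411-98514542. The 18 had a median score of 82.0, against 88.7 for all narrow peaks of 150 to 249 bp. It was 102 over all narrow peaks and 175 over all MACS peaks. The nearest neighbour was wide for 16 of the 18 and had the higher score for 13 of them. The second count was not made over all narrow peaks, so whether it is particular to the 18 was not tested. One example is chr16:25238451-25238671, with a score of 72.92, which lay 17.2 kb from a peak with the highest score of the list, 3100. The closest to any neighbour was chr3:85377852-85378018, with a score of 81.04, at 5.69 kb from a peak of 578 bp that scored 1254.44. These peaks were named after their values were seen. There were 2 pairs of narrow peaks within 50 kb of each other. The peaks chr12:16754504-16754743 (score 532.90) and chr12:16797318-16797553 (score 81.90) lay 42.6 kb apart, with 2 other MACS peaks between them. The peaks chr17:74660366-74660586 (score 148.36) and chr17:74704985-74705181 (score 77.12) lay 44.4 kb apart. Over all distances, the nearest MACS peak was itself below 250 bp for 36.3% of narrow and 35.4% of wide peaks.

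The CCAT list stopped short of 16 narrow peaks, on chromosomes 13 to 19, and these had no CCAT region. Up to the point where the list stopped, all 265 narrow peaks overlapped a region. The 16 had a median score of 131, and 3 were below 150 bp. On chromosome 13 they were chr13:116982982-116983209, with the highest score of the 16, 429.01, and chr13:120276494-120276652. On chromosome 14 they were chr14:110075432-110075603, chr14:112918103-112918205, chr14:119686054-119686250 and chr14:123850717-123850921, and on chromosome 15 chr15:103106529-103106627. On chromosome 16 they were chr16:92555339-92555585, chr16:93598099-93598302, chr16:93789423-93789596 (score 399.64) and chr16:94598820-94598973, the last with the lowest score of the 16, 73.46. The others were chr17:83913176-83913401, chr17:93445768-93445854, chr17:94044998-94045196, chr18:82682194-82682437 and chr19:61000582-61000734.

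Narrow peaks were found on all 19 chromosomes, from 7 on chromosome 18 to 23 on chromosome 10. Together they made up 36.6% of the isolated peaks. The share by chromosome ran from 24.2% on chromosome 15 (8 of 33) to 52.9% on chromosome 14 (18 of 34, interval 36.7 to 68.5%). On 17 of the 19 chromosomes the interval held the pooled share. Chromosomes 10 (23 of 45, 51.1%, 37.0 to 65.0%) and 14 lay just above it. Chromosome 12 held 11 narrow peaks, and none of them was below 150 bp, against 80 of 281 over all chromosomes. It was singled out after its value was seen, and the difference was not tested.

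**Figure D5:**
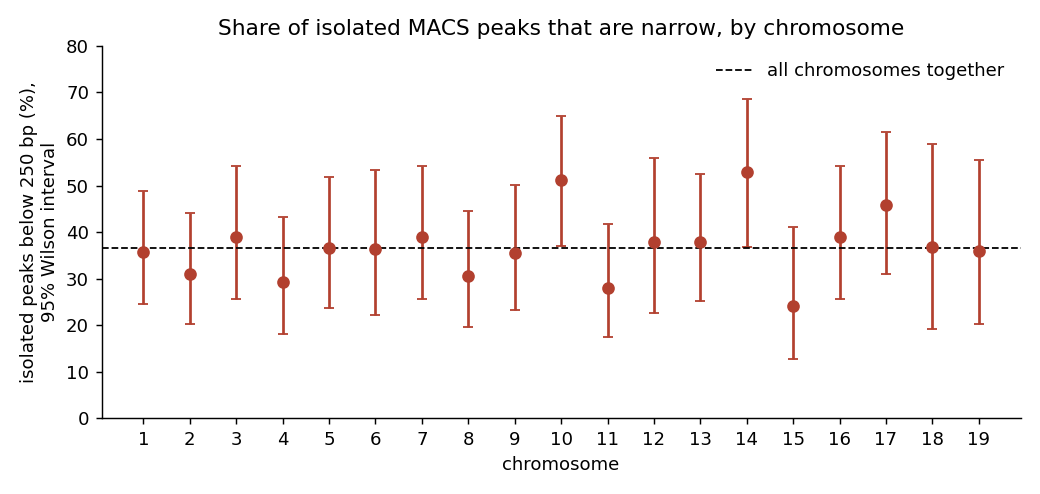
Share of isolated MACS peaks that were below 250 bp wide (vertical axis, percent, points with 95% Wilson intervals) on each of chromosomes 1 to 19 (horizontal axis), with the pooled share of 36.6% as a dashed line. The intervals of chromosomes 10 and 14 lie just above the line, and the other 17 hold it.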

How the data were processed

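ERα ChIP-seq of pooled mouse mammary gland pads was analysed from 2 region lists called against whole cell extract. Per the submitters' processing notes, BWA, MACS 1.4.1 and the assembly mm9 were used. Their settings, and the version of CCAT, were not given in the sources used here. Each deposited MACS peak carries a score, in that caller's format the negative log10 of its p-value multiplied by 10. Each deposited CCAT region carries 1 value, read from its range (0.005 to 1) and order as an FDR, a q-value. How duplicate and multiply matching reads were treated is not recorded, and the width, score and FDR of a peak can depend on it.

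Of repeated CCAT lines (428) only the first was kept, which concerned 6 narrow peaks. Overlap meant at least 1 bp, and the best region was that with the lowest FDR. Named peaks were the 10 highest and 5 lowest scores, the 5 narrowest, those within 2 bp of the width limit, those without a CCAT region and groups of narrow peaks within 50 kb. Others are said to be named afterwards. The peaks, groupings and measures were chosen with earlier results of these data known. Alternatives varied the width limit, isolation, chromosomes, score, overlap, FDR and distances. Planned motif and gene analyses were not run. Analyses used Python 3.11.15 with pandas 2.3.3, numpy 2.4.6, matplotlib 3.10.9 and scipy 1.17.1, and the code was tested on simulated regions.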

Additional observations from a re-analysis of the deposited data

How the results depend on the processing

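Of 87 alternative values, 63 stayed within the 95% interval of the value reported (for the number of peaks, within 1.5 times) and 24 moved. None moved with isolation of 1 or 50 kb, with chromosomes X and Y, with 50% of the peak covered or with the lowest FDR of repeated lines. The 3 values at 50% cover could not move, since all 265 narrow peaks with a region lay wholly inside it. The 4 values for repeated lines had little room to move, since such lines concerned 6 narrow peaks. Isolation of 1 or 50 kb changed the set little, to 285 and 263 peaks. A width limit of 200 bp left 166 peaks, with a median score of 117 and an FDR of 1 at 39.2%. A limit of 300 bp gave an FDR of 1 at 26.4%. Scores of at least 100 left 143 peaks, with a median score of 206, an FDR of at most 0.05 at 12.6%, an FDR of 1 at 19.6%, a median centre distance of 21.0 bp and a median distance to the nearest MACS peak of 978 kb. The groups split at 150 bp, added after the data were seen, held 80 narrower and 201 wider peaks. The narrower had a median score of 192, an FDR of at most 0.05 at 12.5%, an FDR of 1 at 46.2%, a median centre distance of 16.0 bp, a further CCAT region at 33.8% and a nearest MACS peak at 1307 kb. The wider had 88.7, 3.98% and 25.9% for the first 3 of these. An FDR of at most 0.01 was reached at 3.20% and an FDR below 1 at 62.6%, against 6.41% at 0.05. A score floor raises the median score by construction, and another FDR limit can move its share in only 1 direction. Up to the last CCAT region the overlap was 100%, and a further region at 1 to 5 kb was found for 20.4%. Motifs and gene positions were not run. No paired analysis was possible because both groups hold a single library, and none could be left out. Depth is unknown, so which weak peaks it limits was not tested.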
